A study of Mus musculus with 6 samples.

Results

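Mitosis and spindle genes are the genes whose products start mitosis, compact and attach the chromosomes, pull them apart and divide the cell. The 47 genes described here were taken by symbol from the GENCODE annotation of the mouse genome build GRCm38, and all 47 were found among the 49585 gene identifiers in the count tables. RNA was sequenced from tumoroids, which are epithelial cultures grown in Matrigel drops, here from intestinal adenoma cells of C57BL/6 mice. The 3 knock-out libraries came from cells with APC min/+, Villin-Cre and floxed IKKa (FL/FL), and the 3 wild-type libraries from cells with APC min/+, Villin-Cre and IKKa +/+. Both groups therefore carried the Min mutation in Apc and a Cre recombinase under the Villin promoter, an intestinal epithelial promoter, and both grew in medium with R-spondin, Noggin, EGF, basic FGF and a ROCK inhibitor. The groups differ by design in the floxed alleles of Chuk, the gene of the kinase IKKa. The replicates are labelled biological, with no mouse or culture named, so p-values measure only how far these libraries spread, and that spread may be technical.

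Most mitotic genes are transcribed late in the cell cycle. They are held silent in resting cells by the DREAM complex and switched on in G2 by the MuvB core with B-Myb and FoxM1. The MuvB core binds a promoter sequence called the cell cycle genes homology region, often beside CCAAT boxes, which bind the factor NF-Y. In the intestine the dividing cells sit in the crypts, and Apc mutant adenoma cells keep dividing because Wnt signalling stays on. In bulk RNA, fewer cells in mitosis and less mitotic RNA per cell cannot be told apart.

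Several facts of the whole series bear on these genes. The libraries held 20749747 to 31875723 counts, and the members took 4340 to 101303 counts each over the 6 libraries, with no fewer than 487 in any library, so none was near the detection limit. Chuk had 28.9, 24.4 and 34.9 CPM in the knock-out libraries against 101, 106 and 95.8 CPM in the wild-type libraries, where CPM is the count scaled to library size with TMM factors. The 5 sex-linked genes also separated the genotypes: Xist was at most 0.0969 CPM in knock-out and at 857.7 to 1482.5 CPM in wild-type, and the 4 Y-linked genes Eif2s3y, Ddx3y, Kdm5d and Uty were counted almost only in knock-out, so genotype and sex cannot be told apart. Mitochondrial transcripts took 2.15% to 3.46% of the counts in knock-out and 6.18% to 7.58% in wild-type. Genes of chromosome 5 with a mean of at least 5 CPM had a median log2 fold change 0.43 above that of the other autosomes. Knock-out replicate 2 stood apart from the other knock-out libraries, with a chi-square per degree of freedom of 39.4 and 40.0 against them, while those had 5.80 between themselves.

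All 8 markers of intestinal epithelium were present, with a summed level of 10390 to 12197 CPM in knock-out and 8150 to 8765 CPM in wild-type. The higher sum in knock-out lay in the keratins, with Krt19 at a mean of 3970 CPM in knock-out and 1475 CPM in wild-type and Krt8 and Krt18 also higher, while Epcam (412 CPM in knock-out, 915 CPM in wild-type), Vil1 (231 and 428 CPM) and Cldn7 (306 and 486 CPM) fell. The epithelial identity factor Cdx2 was at 19.2 to 21.8 CPM in knock-out, against 183 to 204 CPM in wild-type. Of 7 immune markers 5 stayed under 1 CPM in all libraries and Cd3e was at 0, with a summed level of 23.1 to 23.8 CPM in knock-out and 3.79 to 6.98 CPM in wild-type that lay mostly in Cd68 and Csf1r. All 7 fibroblast markers stayed under 1 CPM (0.452 to 0.885 CPM summed in knock-out, 0 to 0.339 CPM in wild-type), and Dcn, Lum, Thy1 and Pdgfrb were at 0. Of 4 endothelial markers 3 stayed under 1 CPM and Kdr was at 0 (0.300 to 0.442 CPM summed in knock-out, 9.93 to 14.5 CPM in wild-type, nearly all Tek). Of 4 muscle markers 3 stayed under 1 CPM and Cnn1 was at 0 (0 to 0.316 CPM summed in knock-out, 9.14 to 17.9 CPM in wild-type, nearly all Acta2). Of 5 nerve and glia markers Elavl4 and Sox10 were at 0, and the summed level was 1.99 to 2.00 CPM in knock-out and 0.804 to 3.15 CPM in wild-type. The part of any of these differences in the results below was not tested.

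The members were lower in knock-out tumoroids as a body, by a moderate amount and to unequal degrees. They summed to 5742, 5773 and 5579 CPM in the knock-out libraries, against 8410, 8154 and 8298 CPM in the wild-type libraries. The groups did not overlap, and the summed level was 1.45-fold higher in wild-type. As a share of all counts this was 0.559% to 0.575% in knock-out and 0.811% to 0.844% in wild-type. All 47 members passed the filter on low counts. Of these, 40 fell at an adjusted p of 0.05 (edgeR quasi-likelihood test, Benjamini-Hochberg adjustment over 13759 genes), 7 did not pass and 0 rose, where 27.0% of all genes tested fell, 30.4% rose and 57.4% passed in either direction. At an unadjusted p under 0.05, 1 member was higher in knock-out, and DESeq2 and limma voom each called 0 members higher. The median log2 fold change of the members was -0.54, against 0.00 over all genes tested, and their range was -1.46 to 0.23. Falls of at least 1.5-fold were found for 22 members, where 15.7% of all genes tested fell that far. Falls of at least 2-fold were found for 4 of the 47 members and for 1352 of the 13759 genes tested. The members' share at 2-fold was therefore no higher than that of all genes. The highest knock-out library was under the lowest wild-type library for 40 members, where the share among all genes was 30.4%. Among the 7127 genes tested whose mean CPM lay within the members' range, 30.0% fell. Leaving out any 1 library left 36 to 42 members lower, with 42 without knock-out replicate 2, the library that stood apart.

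**Figure D1:**
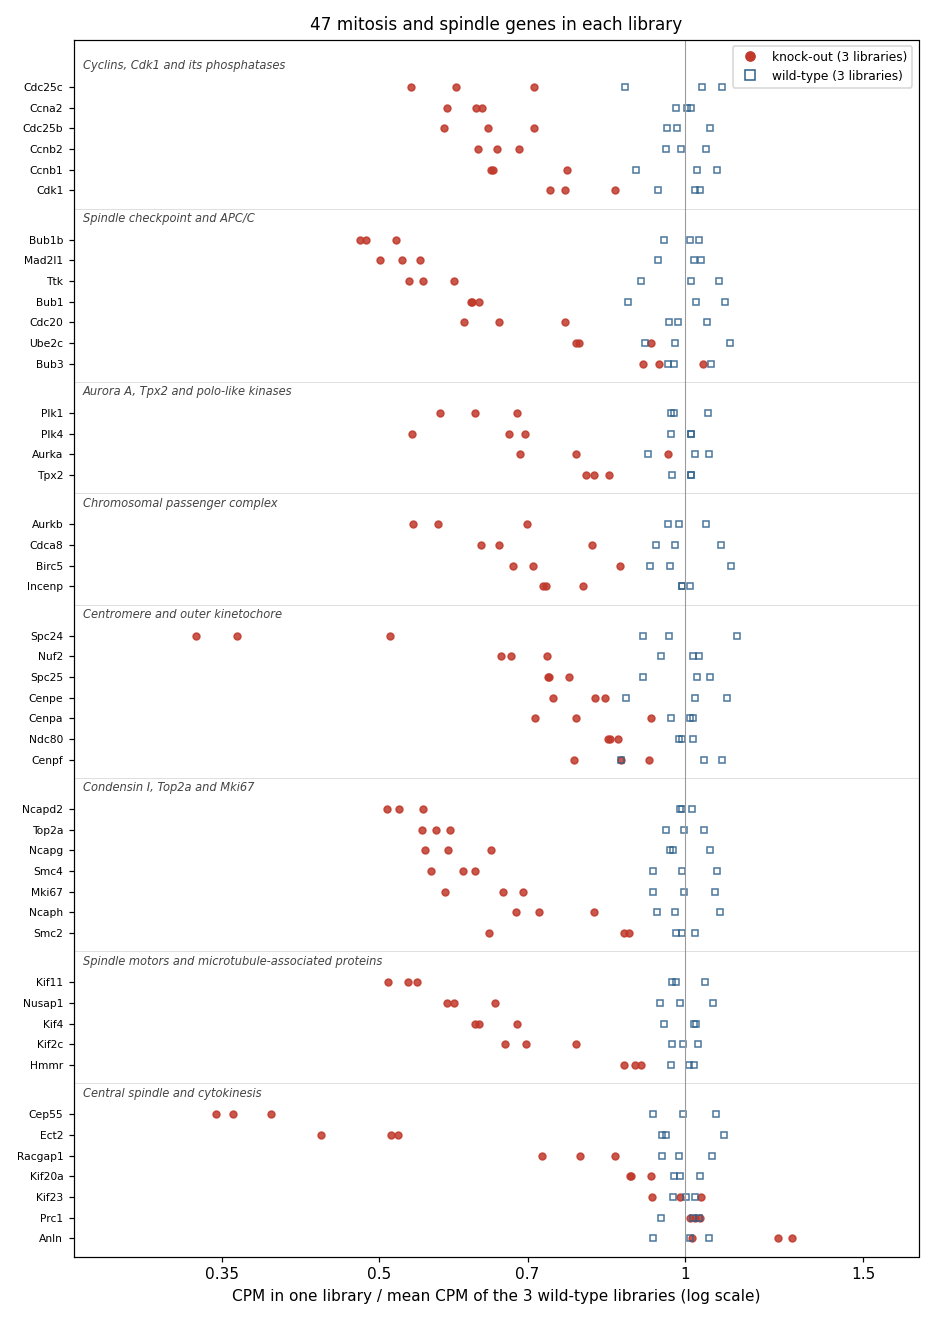
Each row is 1 of the 47 mitosis and spindle genes, grouped by role, and the horizontal axis is the CPM of a library divided by the mean of the 3 wild-type libraries, on a log scale. Filled circles are the 3 knock-out libraries and open squares the 3 wild-type libraries. The circles of 40 genes lie wholly to the left of the squares, Cep55 and Spc24 farthest. Those of Aurka, Ube2c, Cenpf, Bub3, Kif23, Prc1 and Anln overlap them. These 40 are not the same set as the 40 that fell, since Hmmr and Kif20a are separate but did not pass, while Aurka and Ube2c overlap but fell.

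Promoters of 8 members are shown, 5 that fell and 3 that did not pass, so that the letters of the elements known from mitotic genes can be read in them. Of the 47 members, 39 matched the RefSeq promoter table of build GRCm38.p6, which gives 250 bases before and 50 after each start, and the first listed promoter of each gene was searched on both strands. The unmatched members were Kif20a, Spc24, Aurkb, Ccna2, Smc4, Cdc25c, Tpx2 and Incenp. A CCAAT box was searched as CCAAT or its complement ATTGG. The cell cycle genes homology region was searched in 4 forms with their complements. The first form was TTTGAA, the second was TTCGAA, the third was TTTAAA and the last one searched was CTTGAA. At least 2 CCAAT boxes stood in 19 of the 39 promoters (48.7%), against 12.2% of the 27025 genes in the table. At least 1 homology region of any form stood in 35 (89.7%), against 37.6% of all genes. The form TTTGAA or its complement stood in 29 (74.4%), against 18.1% of all genes. At least 2 CCAAT boxes together with a homology region stood in 19 (48.7%), against 4.41%. Only 1 pair of matches in the member promoters, in Cdca8, shared a base.

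The windows below run from 130 bases before to 35 after the RefSeq start, in the direction of transcription, with matches to either element in capitals. The first 5 belong to members that fell: Cep55 (chr19:38054854-38055018, plus strand), Ncapd2 (chr6:125191552-125191716, minus strand), Ttk (chr9:83834559-83834723, plus strand), Top2a (chr11:99024155-99024319, minus strand) and Ccnb2 (chr9:70421520-70421684, minus strand). The other 3 belong to members that did not pass the test: Hmmr (chr11:40733403-40733567, minus strand), Kif23 (chr9:61946765-61946929, minus strand) and Prc1 (chr7:80294321-80294485, plus strand).
Cep55: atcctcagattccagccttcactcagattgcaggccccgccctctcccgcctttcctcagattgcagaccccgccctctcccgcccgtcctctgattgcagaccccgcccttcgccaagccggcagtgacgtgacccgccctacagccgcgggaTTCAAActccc
Ncapd2: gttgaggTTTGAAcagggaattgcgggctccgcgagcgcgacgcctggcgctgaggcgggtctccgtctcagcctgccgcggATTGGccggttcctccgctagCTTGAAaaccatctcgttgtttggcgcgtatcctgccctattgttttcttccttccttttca
Ttk: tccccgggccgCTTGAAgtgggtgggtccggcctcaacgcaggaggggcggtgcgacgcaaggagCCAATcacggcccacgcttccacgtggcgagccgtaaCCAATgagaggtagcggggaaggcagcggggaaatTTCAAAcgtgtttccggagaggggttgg
Top2a: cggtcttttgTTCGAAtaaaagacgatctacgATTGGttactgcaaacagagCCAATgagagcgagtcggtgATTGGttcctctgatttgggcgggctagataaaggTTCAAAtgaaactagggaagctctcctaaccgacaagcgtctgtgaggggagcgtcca
Ccnb2: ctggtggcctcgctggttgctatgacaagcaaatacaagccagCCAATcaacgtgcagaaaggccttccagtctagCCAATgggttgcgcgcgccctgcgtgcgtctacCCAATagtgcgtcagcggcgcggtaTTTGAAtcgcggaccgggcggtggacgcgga
Hmmr: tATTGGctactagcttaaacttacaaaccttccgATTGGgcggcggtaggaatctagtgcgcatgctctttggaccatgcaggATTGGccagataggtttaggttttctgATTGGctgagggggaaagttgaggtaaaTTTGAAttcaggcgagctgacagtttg
Kif23: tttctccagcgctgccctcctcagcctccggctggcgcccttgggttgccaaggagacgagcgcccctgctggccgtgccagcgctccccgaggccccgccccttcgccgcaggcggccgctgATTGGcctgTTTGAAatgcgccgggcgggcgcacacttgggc
Prc1: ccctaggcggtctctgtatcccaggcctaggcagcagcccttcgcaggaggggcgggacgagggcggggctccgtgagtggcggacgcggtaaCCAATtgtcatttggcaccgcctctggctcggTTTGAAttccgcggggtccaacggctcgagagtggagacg

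The windows differ in how many elements they hold, both among members that fell and among members that did not pass. Ccnb2 has 3 CCAAT boxes that begin 87, 54 and 21 bases before the start and TTTGAA from base 5 after it. Hmmr, which did not pass, has 4 boxes that begin 129, 96, 47 and 20 bases before the start and TTTGAA from base 9 after it. Top2a has 3 boxes with TTCGAA 120 and TTCAAA 23 bases before the start. Ttk has 2 boxes with CTTGAA 119 bases before the start and TTCAAA from base 8 after it. Ncapd2 has 1 box with TTTGAA 123 and CTTGAA 27 bases before the start. Kif23 and Prc1 each have 1 box and 1 TTTGAA close to the start. Cep55, the member with the largest fall, has no CCAAT box in this window and TTCAAA from base 25 after the start. The 300 bases searched reach beyond these windows. Over them Ncapd2 had 3 boxes, Top2a 6 boxes and 4 homology regions, Hmmr 5 boxes and Ccnb2 2 homology regions. The counts that follow are over the 300 bases. Among the 33 matched members that fell, 16 had at least 2 CCAAT boxes, 29 a homology region of any form and 23 the TTTGAA form. Among the 6 matched members that did not pass the counts were 3, 6 and 6. Of the 413 tested genes outside the members with at least 2 boxes and a homology region, 34.4% fell and 25.2% rose, where 27.9% fell and 31.8% rose among the 10195 tested genes with a listed promoter. A match is a description of letters and not a site.

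The cyclins, Cdk1 and its phosphatases fell without exception. Cdk1, the kinase that drives entry into mitosis, had 179, 200 and 173 CPM in knock-out, against 221, 240 and 243 CPM in wild-type. It fell 1.28-fold (adjusted p = 0.0025), the smallest fall of the 6 genes. Ccna2, the cyclin of S and G2 phase, had 234, 237 and 219 CPM in knock-out, against 381, 369 and 378 CPM in wild-type, with tight and separate groups. It fell 1.63-fold, with a log2 fold change of -0.71 and a standard error of 0.07 (adjusted p = 2.7e-06). The mitotic cyclins Ccnb1 and Ccnb2, which activate Cdk1, fell 1.46-fold and 1.53-fold. Cdc25b and Cdc25c, the phosphatases that remove the inhibitory phosphates from Cdk1, fell 1.56-fold and 1.63-fold. The groups of these 6 genes did not overlap. The ratio of Ccnb2 to Cdk1 within a library was 0.526, 0.515 and 0.568 in knock-out, against 0.674, 0.599 and 0.649 in wild-type. These ratios did not overlap, and their exact permutation test gave p = 0.10, which is the smallest p that 3 against 3 libraries allow. This and the other ratios below belong to a family of 7 pairs chosen after the values were seen, all with that same p. The p adjusted over the 7 is also 0.10, but it does not account for that choice. The choice itself favoured separate groups, so the p-values of these ratios are descriptive only.

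The spindle assembly checkpoint holds the anaphase-promoting complex (APC/C) back until each chromosome is attached. Bub1b, the checkpoint kinase-like protein BubR1, had 83.6, 89.5 and 82.5 CPM in knock-out, against 165, 178 and 175 CPM in wild-type. It fell 2.02-fold, with a log2 fold change of -1.02 and a standard error of 0.08 (adjusted p = 2.3e-07). Mad2l1, the Mad2 protein that binds Cdc20, had 83.6, 91.4 and 87.9 CPM in knock-out and 170, 157 and 173 CPM in wild-type, a 1.91-fold fall (adjusted p = 6.4e-07). Ttk, the Mps1 kinase at the top of the checkpoint, fell 1.79-fold and the kinase Bub1 fell 1.62-fold. Bub3, which carries Bub1 and BubR1 to kinetochores, did not follow them. It had 175, 193 and 169 CPM in knock-out, against 181, 179 and 197 CPM in wild-type, so the groups overlapped. Its fitted fold change was 0.965, with a 95% interval of 0.856 to 1.09 (adjusted p = 0.61). The ratio of Bub1b to Bub3 was 0.476 ± 0.0126 in knock-out and 0.931 ± 0.0583 in wild-type (SD, n = 3 each, exact permutation p = 0.10).

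The checkpoint acts on Cdc20 and the APC/C. Cdc20, the APC/C activator that the checkpoint holds, had 161, 187 and 148 CPM in knock-out, against 236, 241 and 258 CPM in wild-type, a 1.48-fold fall (adjusted p = 1.8e-04). Ube2c, the ubiquitin-conjugating enzyme of the APC/C, had 151, 178 and 151 CPM in knock-out, against 176, 188 and 214 CPM in wild-type. The groups of Ube2c overlapped, with knock-out replicate 2 above wild-type replicate 1, and it fell 1.20-fold (adjusted p = 0.030). That call was lost without knock-out replicate 1 (adjusted p = 0.111), knock-out replicate 3 (0.116), wild-type replicate 2 (0.0652) or wild-type replicate 3 (0.145).

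Among the spindle pole kinases, the polo-like kinases had larger falls than Aurora A and its activator, a difference that was not tested. Plk1, the polo-like kinase of mitotic entry and spindle assembly, had 102, 113 and 94.5 CPM in knock-out, against 160, 161 and 174 CPM in wild-type, and fell 1.60-fold (adjusted p = 2.4e-05). Plk4, which starts centriole duplication, fell 1.57-fold to 39.7 ± 5.27 CPM in knock-out, against 62.4 ± 1.60 CPM in wild-type (SD, n = 3 each). Tpx2, the microtubule protein that activates Aurora A, had 146, 151 and 143 CPM in knock-out and 181, 174 and 181 CPM in wild-type, which are separate groups close to each other. It fell 1.22-fold (adjusted p = 0.0035). Aurka itself had 82.0, 101 and 72.1 CPM in knock-out, against 96.5, 107 and 111 CPM in wild-type. The groups of Aurka overlapped through knock-out replicate 2, and it fell 1.23-fold (adjusted p = 0.040). Its call was lost without knock-out replicate 1 (adjusted p = 0.111), knock-out replicate 3 (0.181), wild-type replicate 2 (0.116) or wild-type replicate 3 (0.127).

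The chromosomal passenger complex corrects faulty attachments and later guides cytokinesis. Its kinase Aurkb had 69.9, 85.6 and 66.1 CPM in knock-out, against 121, 118 and 128 CPM in wild-type, and fell 1.66-fold (adjusted p = 5.6e-05). The scaffold Incenp had 126, 137 and 125 CPM in knock-out and 171, 171 and 174 CPM in wild-type, a 1.33-fold fall (adjusted p = 3.7e-04). The targeting subunits Cdca8, which is Borealin, and Birc5, which is Survivin, fell 1.43-fold and 1.34-fold. All 4 subunits had separate groups, and knock-out replicate 2 was the highest knock-out library for each. The ratio of Aurkb to Birc5 was 0.862 ± 0.0447 in knock-out and 1.07 ± 0.0544 in wild-type (SD, n = 3 each, exact permutation p = 0.10).

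The centromere and outer kinetochore genes differed widely among themselves. The Ndc80 complex is a tetramer that ties kinetochores to microtubules, and its 4 genes fell by unequal amounts. Spc24, the inner end of the tetramer, had 15.4, 23.9 and 16.9 CPM in knock-out, against 45.0, 42.4 and 52.6 CPM in wild-type. It fell 2.51-fold, with a log2 fold change of -1.33 and a standard error of 0.16 (adjusted p = 1.4e-05). Spc25, its direct partner, had 37.8, 36.1 and 36.1 CPM in knock-out and 50.7, 44.8 and 52.2 CPM in wild-type, a 1.34-fold fall (adjusted p = 0.0020). Nuf2 fell 1.45-fold, and Ndc80, the microtubule-binding subunit, had 38.7, 37.9 and 38.0 CPM in knock-out against 44.7, 44.5 and 45.9 CPM in wild-type. These groups were tight and separate, and Ndc80 fell 1.18-fold (adjusted p = 0.034). The call of Ndc80 was lost without knock-out replicate 1 (adjusted p = 0.0799), knock-out replicate 3 (0.0988), wild-type replicate 1 (0.0750), wild-type replicate 2 (0.0607) or wild-type replicate 3 (0.0967). The ratio of Spc24 to Ndc80 was 0.397, 0.631 and 0.444 in knock-out, against 1.01, 0.954 and 1.15 in wild-type (exact permutation p = 0.10). These ratios did not overlap, and a ratio within a library does not depend on the scaling.

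The other kinetochore members moved little. Cenpa, the histone variant that marks centromeres, had 95.5, 124 and 105 CPM in knock-out, against 136, 130 and 137 CPM in wild-type, and fell 1.24-fold (adjusted p = 0.015). Cenpa lies on chromosome 5, whose genes as a group lay above the other autosomes in knock-out. Its call was lost without knock-out replicate 1 (adjusted p = 0.0809), knock-out replicate 3 (0.0563) or wild-type replicate 1 (0.0514). The kinesin Cenpe, which carries chromosomes to the metaphase plate, fell 1.25-fold (adjusted p = 0.011, and 0.0659 without wild-type replicate 1). Cenpf, a large kinetochore and nuclear matrix protein, had 142, 120 and 134 CPM in knock-out, against 168, 161 and 134 CPM in wild-type, with overlap. Its fitted fold change was 0.855, with a 95% interval of 0.736 to 0.994 (adjusted p = 0.071, and 0.016 without wild-type replicate 3).

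**Figure D2:**
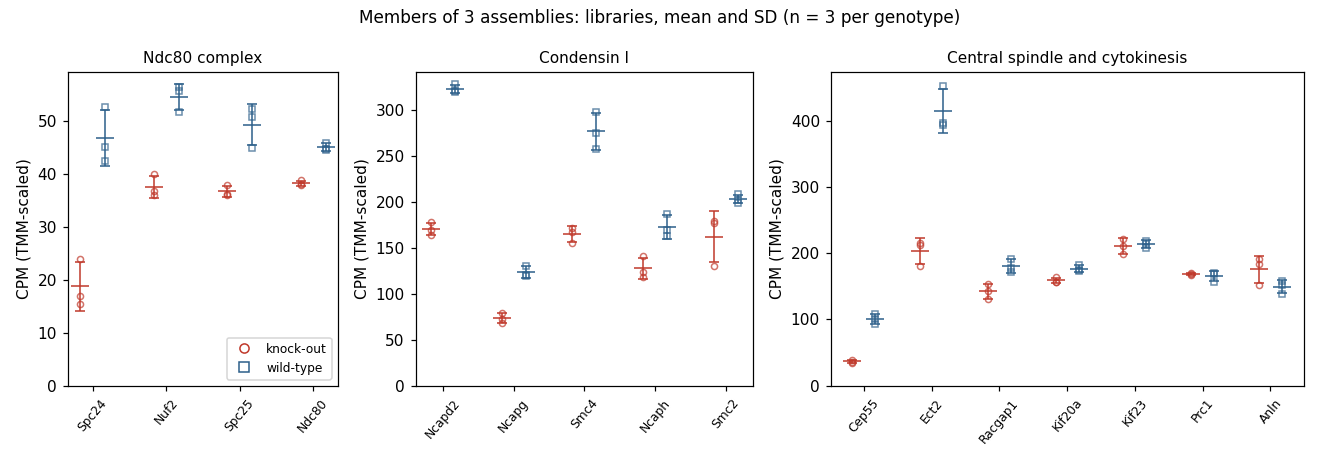
Panels show the Ndc80 complex, condensin I, and the central spindle and cytokinesis genes, with CPM on the vertical axis from 0. Open circles are the 3 knock-out libraries and open squares the 3 wild-type libraries of each gene, and the dashes with bars are mean and SD. Within the Ndc80 complex Spc24 shows the widest gap between genotypes and Ndc80 the narrowest, while in the right panel Cep55 and Ect2 are separated and Kif23, Prc1 and Anln overlap.

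Genes of chromosome structure fell throughout. Top2a, the topoisomerase that untangles sister chromatids, had 463, 448 and 435 CPM in knock-out, against 824, 787 and 756 CPM in wild-type. It fell 1.76-fold, with a log2 fold change of -0.81 and a standard error of 0.07 (adjusted p = 8.5e-07). Mki67, the Ki-67 protein that coats mitotic chromosomes and serves as the common marker of dividing cells, had 452, 378 and 432 CPM in knock-out and 698, 651 and 607 CPM in wild-type, a 1.55-fold fall (adjusted p = 5.0e-05). These 2 genes held 15.3% of the members' summed CPM in knock-out and 17.4% in wild-type. Without them the sum was 4712 to 4947 CPM in knock-out and 6716 to 6934 CPM in wild-type.

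Condensin I is the ring complex that compacts mitotic chromosomes. Its HEAT-repeat subunit Ncapd2 had 169, 178 and 164 CPM in knock-out, against 321, 320 and 328 CPM in wild-type, and fell 1.89-fold (adjusted p = 2.5e-07), one of the 3 smallest adjusted p among the members, with Cep55 and Bub1b. Ncapg and Smc4 both fell 1.68-fold, and Ncaph, the kleisin subunit that closes the ring, fell 1.36-fold. Ncapg lies on chromosome 5. Smc2, the partner ATPase of Smc4, had 177, 130 and 179 CPM in knock-out, against 202, 208 and 199 CPM in wild-type. Knock-out replicate 2 was the lowest, at 0.733 times the other knock-out libraries, and Smc2 fell 1.25-fold (adjusted p = 0.023, but 0.0593 without wild-type replicate 1 and 0.0791 without wild-type replicate 2). The ratio of Ncapd2 to Smc2 was 0.955, 1.37 and 0.918 in knock-out, against 1.59, 1.53 and 1.65 in wild-type (exact permutation p = 0.10).

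Of the spindle motors and microtubule-associated proteins, 4 fell and 1 did not pass. Kif11, the Eg5 motor that pushes spindle poles apart, had 119, 112 and 117 CPM in knock-out, against 229, 213 and 215 CPM in wild-type. The groups were widely separate and Kif11 fell 1.89-fold (adjusted p = 4.0e-07). Its ratio to Tpx2, which loads it on the spindle, was 0.792 ± 0.0439 in knock-out and 1.22 ± 0.0398 in wild-type (SD, n = 3 each, exact permutation p = 0.10). Nusap1, which bundles microtubules near chromosomes, fell 1.64-fold, Kif4, a chromokinesin, 1.55-fold, and Kif2c, the depolymerase MCAK, 1.40-fold. Kif4 lies on chromosome X. Its fall, like that of every other member, cannot be told apart from the difference in sex-linked expression between the groups. Hmmr, a spindle pole protein that is also a hyaluronan receptor, had 99.1, 96.6 and 101 CPM in knock-out, against 112, 113 and 108 CPM in wild-type. Its groups did not overlap, but it did not pass, with a fitted fold change of 0.890 and a 95% interval of 0.797 to 0.994 (adjusted p = 0.068, and 0.042 without knock-out replicate 2).

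The central spindle and cytokinesis genes held both the largest fall and most of the members that did not pass. Cep55, the midbody protein that recruits the abscission machinery, had 36.0, 39.3 and 34.6 CPM in knock-out, against 108, 93.3 and 100.0 CPM in wild-type. The groups lay far apart, and Cep55 fell 2.75-fold, with a log2 fold change of -1.46 and a standard error of 0.09 (adjusted p = 4.8e-08). Ect2, the exchange factor that activates RhoA at the division plane, had 216, 181 and 212 CPM in knock-out, against 452, 396 and 393 CPM in wild-type, and fell 2.04-fold (adjusted p = 9.6e-07). Racgap1, the centralspindlin subunit that binds Ect2, had 142, 154 and 130 CPM in knock-out and 178, 171 and 192 CPM in wild-type, a 1.27-fold fall (adjusted p = 0.0037).

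The remaining 4 cytokinesis genes did not pass. Kif23, the motor subunit of centralspindlin, had 222, 211 and 199 CPM in knock-out, against 214, 219 and 208 CPM in wild-type, with overlap. Its fitted fold change was 0.985, with a 95% interval of 0.883 to 1.10 (adjusted p = 0.82), and its sign turned without knock-out replicate 3. Prc1, which bundles the antiparallel microtubules of the midzone, had 169, 167 and 171 CPM in knock-out, against 170, 156 and 168 CPM in wild-type. Its fold change was 1.02, with an interval of 0.918 to 1.14 (adjusted p = 0.72), and its sign turned under upper-quartile scaling and without wild-type replicate 2. Kif20a, the motor that delivers Aurora B to the midzone, had 156, 164 and 156 CPM in knock-out and 175, 172 and 183 CPM in wild-type, which do not overlap, with a fold change of 0.899 and an interval of 0.808 to 0.999 (adjusted p = 0.080, and 0.015 without knock-out replicate 2). Anln, the anillin scaffold of the contractile ring, was the member with the highest fold change. It had 190, 152 and 184 CPM in knock-out, against 139, 158 and 151 CPM in wild-type, so that knock-out replicate 2 lay within the wild-type range. Its fold change was 1.18, with an interval of 1.02 to 1.36 (adjusted p = 0.052), and without knock-out replicate 2 it rose with an adjusted p of 0.0012. The ratio of Cep55 to Kif23 was 0.162, 0.186 and 0.174 in knock-out, against 0.503, 0.426 and 0.481 in wild-type (exact permutation p = 0.10), the ratio with the widest difference of the 7.

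Levels between genes were compared per kilobase of annotated exon. On that scale Cdc20 ranked first among the members in both genotypes, with 88.6 CPM per kilobase in knock-out and 131 in wild-type, followed by Ccnb2 with 64.3 and 98.1. Cdc25c ranked last in both, with 4.11 CPM per kilobase in knock-out and 6.69 in wild-type. Cep55 ranked 33 in knock-out and 20 in wild-type, Spc24 ranked 43 and 34, and Anln ranked 25 and 37. Exon length here counts all annotated exons of a gene, which understates the level of genes with long unused exons.

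The libraries of a genotype agreed closely on most members. The coefficient of variation had a median of 7.03% in knock-out and 5.12% in wild-type, and its highest value was 24.3% in knock-out, for Spc24, and 11.8% in wild-type. Knock-out replicate 2 was the highest knock-out library for 27 members and the lowest for 14. Relative to the other knock-out libraries it had 1.47-fold more Spc24, 1.31-fold more Aurka, 1.26-fold more Aurkb and Cdca8 and 1.24-fold more Birc5 and Cenpa, but 0.733 times the Smc2, 0.791 times the Plk4 and 0.811 times the Anln. Of the members, 10 overlap an opposite-strand gene with at least 1000 counts over the 6 libraries, such as Ccna2 with Exosc9, Cdc20 with Elovl1 and Kif20a with Cdc23. The strand setting of the counting is not given in the sources used here, so reads of such pairs may not be told apart.

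Other genes of the division machinery were counted from lists of partners, apart from the members. The counts of each list stand beside the 27.0% of all genes tested that fell and the 30.4% that rose. All 3 subunits particular to condensin II, the nuclear relative of condensin I, fell: Ncapg2 1.83-fold, Ncapd3 1.57-fold and Ncaph2 1.25-fold. Among 31 other centromere and kinetochore genes, falls numbered 20 and rises 3 (median log2 fold change -0.41). Pmf1 and Dsn1, subunits of the Mis12 complex on which Ndc80 sits, fell 1.91-fold and 1.72-fold, and Mis18a, which licenses centromeres for new Cenpa, fell 1.61-fold. The 3 that rose were Mad1l1, Cenpc1 and Cenpt, of which Mad1l1 and Cenpc1 lie on chromosome 5. Of 17 cohesin, shugoshin and separase genes 8 fell and 3 rose (median -0.30). The cohesin ATPase gene Smc1a, on chromosome X, fell 1.45-fold, the separase gene Espl1 1.53-fold and the shugoshin gene Sgo1 1.43-fold, while Pds5b, on chromosome 5, Pttg1, the securin gene, and Mau2 rose.

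Of the 17 genes on the APC/C list 5 fell and 3 rose (median -0.15), where 27.0% of all genes tested fell and 30.4% rose, so the share that fell was near that of all genes. Fbxo5, the APC/C inhibitor Emi1, fell 1.58-fold and the subunit Anapc13 1.65-fold, while Anapc4 rose 1.35-fold. Anapc4 and Anapc7, which also rose, lie on chromosome 5, and Anapc2, the remaining one that rose, lies on chromosome 2. Without knock-out replicate 2, 9 genes of this list fell, but the 27.0% above belongs to the fit of all libraries and not to this one. The share of all genes that fell without that replicate is not given here, so these 9 cannot be set against it. Among 34 other centrosome, spindle and kinesin genes, 16 fell and 2 rose (median -0.22). Spag5, or astrin, fell 1.88-fold, Bora, the Aurora A cofactor in Plk1 activation, 2.33-fold and the kinesin Kif15 1.85-fold, and the 2 that rose were Gtse1 and Ckap2. The tubulins, of which spindles are built, went the other way by number of genes: 8 of 12 rose and 2 fell, with a median of 0.89. Their summed level differed little, at 2695.5 to 3136.1 CPM in knock-out and 2426.7 to 2736.8 CPM in wild-type, and these ranges overlap. Tubb6 had 197 ± 13.5 CPM in knock-out and 20.3 ± 1.56 CPM in wild-type (SD, n = 3 each), while Tubb5, the most counted of the list, fell 1.18-fold and Tuba1b 1.38-fold. Only 1 tubulin gene fell without knock-out replicate 1, knock-out replicate 3, wild-type replicate 2 or wild-type replicate 3.

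**Figure D3:**
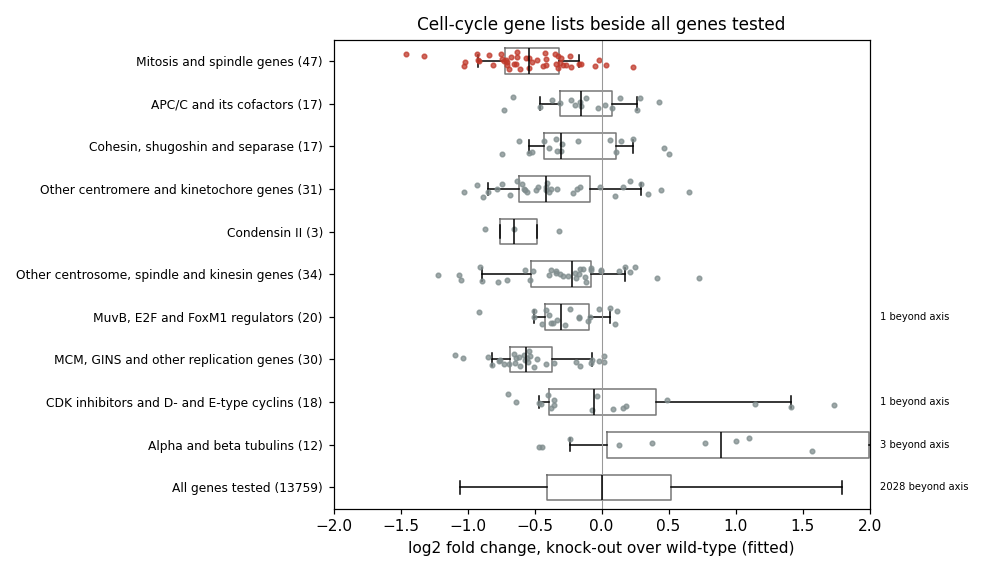
Each dot is the fitted log2 fold change of a gene, knock-out over wild-type, for the 47 mitosis and spindle genes in the top row, 9 further lists below them and all 13759 genes tested in the bottom row (boxes only). Boxes span the quartiles with the median as a line, whiskers the 10th to the 90th percentile, and genes beyond 2 log2 units are counted at the right edge. The median of the mitosis and spindle genes lies at -0.54 and that of the replication genes at -0.56, while that of all genes lies at 0.00.

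Most replication genes were lower in knock-out as well. Of 30 genes of the MCM helicase, GINS, DNA polymerases and nucleotide supply, 23 fell and the other 7 did not pass. Their median was -0.56. Of those that did not pass, Rfc3, Rfc5, Pole and Mcm7 lie on chromosome 5, while Gins2, Gins4 and Rrm2 do not. Tyms, also on chromosome 5, fell 1.28-fold. Mcm10, a helicase activator, fell 2.05-fold, Mcm5 1.76-fold and Rfc4, a clamp loader subunit, 2.14-fold. Among 20 regulators of these programmes 10 fell and the other 10 did not pass, with a median of -0.30. E2f2, an activating E2F factor, had 0.780 ± 0.449 CPM in knock-out, against 21.0 ± 0.966 CPM in wild-type (SD, n = 3 each), and Mybl2, the B-Myb factor, fell 1.88-fold (adjusted p = 2.0e-06). E2f8 fell 1.42-fold. Foxm1 had 122 ± 3.27 CPM in knock-out and 112 ± 2.66 CPM in wild-type (adjusted p = 0.20), chosen for mention after its values were seen. Of 18 CDK inhibitor, cyclin and G1 kinase genes 7 fell and 5 rose (median -0.06), where 27.0% of all genes tested fell and 30.4% rose, so the share that rose was near that of all genes. The inhibitor genes Cdkn1a and Cdkn2a rose 3.33-fold and 2.66-fold, and Ccnd1, the cyclin D1 gene, rose 2.21-fold. Of the other inhibitor genes, Cdkn2b rose 4.63-fold and Cdkn2d 1.40-fold, Cdkn1b fell 1.37-fold, and Cdkn1c and Cdkn2c did not pass. Of the other D-type cyclin genes, Ccnd2, the cyclin D2 gene, fell 1.62-fold and Ccnd3 did not pass.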

How the data were processed

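Per the labels' protocols, total RNA was made into stranded, polyA-selected libraries. The submitters' processing notes name STAR and GRCm38. How reads were counted, whether by strand, and on which annotation release is not given in the sources used here. Deposited tables hold raw counts, 1 whole number per Ensembl identifier. Symbols and exon lengths came from GENCODE for GRCm38 (49326 of 49585 identifiers named), and promoters from RefSeq.

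Genotypes were compared by edgeR's quasi-likelihood test (edgeR 4.0.16, R 4.3.3) on TMM-scaled libraries with no covariate, after filterByExpr (at least 10 counts, 15 in total), with Benjamini-Hochberg p-values adjusted over the 13759 genes left, at a threshold of 0.05. Standard errors are the log2 fold change divided by the square root of its F statistic, and 95% intervals follow from them. A CPM of 1 is 20.7 to 31.9 counts per library. The fit was first run on simulated counts with changes planted in a small part of the genes. Far more genes passed here, so that run is not used as support for the calls. The members and lists were chosen with earlier results of these data known, so no test was made over a list. Named genes are all 47 members, Chuk, and up to 3 genes per list with the smallest adjusted p. Genes that rose against their list, and Tubb5, Tuba1b, Foxm1, Cdkn1b, Ccnd2 and Cdx2, were named after their values were seen. So were Cdkn2b, Cdkn2d, Cdkn1c, Cdkn2c, Ccnd3, Rfc3, Rfc5, Pole, Mcm7, Gins2, Gins4, Rrm2 and Tyms. Alternatives were DESeq2 1.42.0, limma 3.58.1 voom, other scalings and filters, protein-coding genes only, an adjusted p of 0.01, a replicate block, no genes of chromosomes X, Y, 5 and the mitochondrial genome, and leaving out each library.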

Additional observations from a re-analysis of the deposited data

How the results depend on the processing

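The number of mitosis and spindle genes that fell was 34 to 43 under every alternative run, and their median log2 fold change -0.60 to -0.50. The number that rose was 0, but 1, Anln, with a filter of 1 CPM in 3 libraries, with no filter, and after dropping chromosomes X, Y, 5 and mitochondrial transcripts, and 0 to 1 when 1 library was left out. Prc1 turned to -0.023 under upper-quartile scaling (adjusted p = 0.81) and lay between -0.0047 (without wild-type replicate 2) and 0.055 when 1 library was left out. Kif23 lay between -0.059 and 0.021 (without knock-out replicate 3). The cause was not tested. At an adjusted p of 0.01, Ube2c, Aurka, Cenpe, Smc2, Cenpa and Ndc80 no longer passed. Ndc80 also missed with no filter (adjusted p = 0.077). Under upper-quartile scaling, which moved the median of all genes to -0.05, Cenpf, Hmmr and Kif20a passed as lower.

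The labels number the replicates 1 to 3 in both genotypes, without stating that the numbers pair the samples. Same-numbered libraries did not deviate together (correlations of 0.11, -0.11 and -0.19). With 3 libraries per genotype these correlations cannot decide whether the samples were paired. With a replicate block, 39 members fell and 0 rose, with a median of -0.55, and Ndc80 alone among the members lost its call (adjusted p = 0.075), while 1 tubulin gene fell in place of 2. Genotype could not be separated from sex in any alternative.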
